A study of Homo sapiens with 10 samples.

Results

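Interferon-stimulated genes were followed through T47D breast cancer cells that lacked progesterone receptor (PR) or carried one of 2 forms of PR-A. The group was defined by name, as a list of 37 genes known from other work to be induced by interferon. The list was chosen with earlier results of these data known. A gene counted as measured when a probe set on the array carried its symbol and no other. On that rule 33 of the 37 genes were measured, by 40 probe sets, out of 8904 genes and 16376 probe sets in all, and 7 of the 33 had more than 1 probe set. STAT2, IFI30, IFITM1 and IFI35 had no such probe set and were not analysed here. Where a gene had several probe sets, the one with the highest mean over the arrays was read.

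RNA from 5 groups of cells was hybridised to Affymetrix U133 Plus 2 arrays, 2 arrays a group and 10 in all. T47D-Y, a cloned PR-negative derivative of the T47D luminal breast cancer line, was grown with ethanol vehicle. T47D-Y cells stably transfected with wild type PR-A (WT PR-A), or with PR-A K388R, in which the lysine that accepts SUMO is replaced by arginine, were each grown with vehicle or with 10 nM of the synthetic progestin R5020 for 24 h. T47D-Y with R5020 was not analysed here, and whether each PR-A line is 1 clone is not given in the sources used here, so that the transgene and other differences between the lines cannot be told apart. The replicates are numbered 1 and 2 without a statement that they were separate cultures, and p-values then measure only the spread between these samples, which may be technical. Values are log2 signals. For every probe set the differences between replicate 2 and replicate 1 summed to 0 over the 5 groups (largest absolute sum 0.0003), so a shift common to all arrays of a replicate number had been removed before deposit. Each comparison below was therefore fitted in limma with the replicate number as a block and is also given within each replicate number, where that removal has no effect. Statements on overlap of arrays hold for the deposited values and set arrays of both replicate numbers side by side. In bulk RNA, more cells that express a gene and more RNA per cell cannot be told apart.

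Interferons are secreted proteins that signal through paired receptors and the JAK kinases. Type I and type III interferons act on their genes through the interferon-stimulated response element (ISRE), which a complex that holds STAT2 and IRF9 binds, and interferon gamma acts through the gamma-activated sequence (GAS). The induced genes encode antiviral effectors, sensors of foreign nucleic acid and components of the pathway itself, and in breast cancer cells many of them can be expressed without infection.

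Promoter windows are shown for the members described below on every array, 8 with the widest range between groups and IFI44L with the widest replicate gap, to give the letters through which interferon is known to act. OAS2, one of the 8, had no promoter entry, and where a gene had several entries the first with a match before the start is shown. Sequences are from RefSeq (GRCh38.p14), read 5′ to 3′ on the gene's strand, and the capitals mark matches, lying wholly before the start, to the ISRE core, GAAA and a second GAAA with any 2 bases between them, or its reverse complement. IFIT1 (chr10:89392492-89392544, plus strand), IFI27 (chr14:94110613-94110665, plus), MX1 (chr21:41431839-41431878, plus), GBP1 (chr1:89065311-89065350, minus), ISG15 (chr1:1013369-1013414, plus), IFIT5 (chr10:89414508-89414567, plus), IFIT3 (chr10:89327826-89327899, plus) and IFI44L (chr1:78620269-78620399, plus) read as follows.
IFIT1: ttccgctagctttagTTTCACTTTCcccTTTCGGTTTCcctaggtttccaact
IFI27: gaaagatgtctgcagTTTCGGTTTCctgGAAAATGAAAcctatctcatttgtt
MX1: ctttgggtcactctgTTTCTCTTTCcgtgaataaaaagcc
GBP1: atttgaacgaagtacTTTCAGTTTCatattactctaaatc
ISG15: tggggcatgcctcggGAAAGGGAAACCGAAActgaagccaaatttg
IFIT5: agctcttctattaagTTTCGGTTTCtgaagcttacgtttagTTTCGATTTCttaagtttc
IFIT3: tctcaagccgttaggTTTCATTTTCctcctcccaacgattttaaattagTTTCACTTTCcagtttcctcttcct
IFI44L: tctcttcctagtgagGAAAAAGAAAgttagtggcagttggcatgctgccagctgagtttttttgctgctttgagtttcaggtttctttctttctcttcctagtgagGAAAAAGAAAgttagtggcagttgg

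Each of these windows lies within the 250 bases before the annotated start. In IFIT1 and IFI27 the copies begin 116 and 103, and 108 and 95, bases before the start, and in ISG15 they overlap. In IFIT5 the capitals begin 45 and 19 bases before the start, and a further match that begins at position -4 runs past the start and is not marked. Of the 33 measured members, 26 had a promoter entry (250 bases before to 50 after the start). The ISRE core on either strand was in 18 of these 26, against 3.57% of all 35116 promoters and 4.3% of 6906 measured genes with an entry. It was in 13 of the 19 found higher below in vehicle-treated WT PR-A cells than in T47D-Y, and in 5 of the 7 that were not. The GAS letters TTCNNNGAA were in 8 of the 26, among them IRF1 and IRF9, against 7.66% of all promoters and 8.95% of the measured genes. The palindrome of a progesterone response element, GNACA and TGTNC with any 3 bases between them, was in 0 of the 26. It was in 0.39% of all promoters and 0.449% of the measured genes, and no match says only that these letters are not in this window.

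Signal distributions were alike across arrays, with medians of 4.59 to 4.69 and lower quartiles of 3.28 to 3.39, and between 0 and 4 of the 33 members lay under the lower quartile on an array. Markers of luminal epithelium were high, with 8 or 9 of 10 above the upper quartile on both arrays of every group. Of these 10, 4 were below the T47D-Y level in vehicle-treated WT PR-A cells (4.03% of all genes). They were KRT19, ESR1, TFF1 and ELF3, with differences of -0.74 to -1.50. With R5020 2 fell in WT PR-A cells, FOXA1 and ELF3 (3.47% of all genes). After R5020 6 were below T47D-Y there (6.33% of all genes), with a median of -1.03 for the 10. In PR-A K388R 2 were below T47D-Y with vehicle (2.48% of all genes). With R5020 0 were called in that line, where 0.416% of all genes fell and 1.25% rose. The part of these marker changes in the members' differences was not tested. Of 18 leukocyte markers 0 were above the upper quartile in any group, and their mean level spanned 4.24 to 4.47 over the 10 arrays. R5020 raised 11 of 15 known progestin targets in WT PR-A cells (4.4% of all genes) and 10 of 15 in PR-A K388R cells (1.25%).

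The first question was how the levels of the 33 genes differed between WT PR-A cells and their PR-negative parent without hormone. Of the 33, 21 were higher in the WT PR-A line than in its parent (adjusted p under 0.05 in limma over all probe sets, and at least 1.5-fold) and 0 were lower, where 4.48% of all 8904 genes were higher and 4.03% lower. The median log2 difference was 1.73 for the 33 genes and 0.02 for all genes. Because the 33 were listed with earlier results of these data known, their shares are not an independent test of interferon-stimulated genes at large. Among 15 further interferon-stimulated genes 3 were higher, with a median of 0.14. Within replicate numbers, 31 of the 33 differences were positive in both (35.6% of all genes) and 22 were at least 1.5-fold in both (3.69% of all genes). The differences were larger in replicate 2, with a median of 2.41 against 0.98 in replicate 1.

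All 8 effectors that bind RNA or act on nucleotides were higher, with a median log2 difference of 3.46. IFIT1, which binds viral RNA that lacks the host's cap methylation, read 5.99 and 4.93 on the T47D-Y arrays, 10.50 and 11.87 on the vehicle-treated WT PR-A arrays, 7.68 and 10.68 with R5020, 6.85 and 5.34 in vehicle-treated PR-A K388R cells and 6.09 and 4.28 with R5020. All 4 WT PR-A arrays were above all 6 others. Its log2 difference between WT PR-A and T47D-Y with vehicle was 5.72 (52.8-fold, SE 0.96, limma adjusted p = 0.0045).

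OAS2, an enzyme that makes the oligoadenylates which activate RNase L, read 5.23 and 4.54 in T47D-Y, 9.50 and 10.72 in WT PR-A with vehicle, 6.62 and 8.79 with R5020, 7.03 and 5.81 in PR-A K388R with vehicle and 6.24 and 4.76 with R5020. The WT PR-A vehicle arrays were the highest, while the lower WT PR-A R5020 array lay within the range of PR-A K388R. The vehicle difference from T47D-Y was 5.22 (37.3-fold, SE 0.74, limma adjusted p = 0.0017), and a second OAS2 probe set gave 3.0. OAS1, which has the same activity, differed by 3.34 (10.1-fold).

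IFIT3, a partner of IFIT1, read 6.03 and 5.21 in T47D-Y, 8.42 and 9.99 in WT PR-A with vehicle, 7.13 and 8.98 with R5020, 6.95 and 5.44 in PR-A K388R with vehicle and 6.62 and 5.52 with R5020. IFIT5, which also binds RNA ends, read 6.14 and 4.93, 8.62 and 9.84, 7.07 and 8.99, 6.94 and 5.73, and 6.43 and 5.70 in the same order. In both genes the 4 WT PR-A arrays were above the other 6, and the vehicle differences from T47D-Y were 3.58 and 3.69 on the log2 scale. ISG20, an exonuclease, EIF2AK2, the kinase that halts translation upon binding double-stranded RNA, and ADAR, an adenosine deaminase of double-stranded RNA, were higher by 1.14, 1.21 and 0.94.

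Among the antiviral GTPases the genes divided. MX1 read 7.44 and 6.85 in T47D-Y, 10.80 and 11.89 in WT PR-A with vehicle, 8.46 and 10.66 with R5020, 9.28 and 7.78 in PR-A K388R with vehicle and 8.50 and 7.30 with R5020. GBP1, a guanylate-binding protein, read 4.38 and 3.77, 7.87 and 8.38, 5.02 and 6.66, 4.59 and 3.97, and 4.74 and 3.83 in the same order. In the deposited values both were highest on the vehicle-treated WT PR-A arrays, without overlap with any other group. For MX1 that sets 10.80 on replicate 1 with vehicle against 10.66 on replicate 2 with R5020, which the removed replicate shift could alter. The 2 genes differed from T47D-Y by 4.20 (18.4-fold, SE 0.73) and 4.05 (16.6-fold, SE 0.50). By contrast MX2 differed by -0.07 and GBP2 by 0.48, and neither was called.

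IFI27, a small mitochondrial and membrane protein, showed the largest vehicle difference of the 33. It read 4.72 and 4.56 in T47D-Y, 9.96 and 11.24 in WT PR-A with vehicle, 8.73 and 10.76 with R5020, 7.39 and 5.57 in PR-A K388R with vehicle and 6.87 and 5.54 with R5020. Its T47D-Y arrays lay below all others, and its WT PR-A arrays lay above all others. The log2 difference between WT PR-A and T47D-Y was 5.96 (62.1-fold, SE 0.76, limma adjusted p = 0.00089), or 5.24 and 6.68 in replicates 1 and 2. The other membrane proteins IFITM2, which restricts virus entry, PLSCR1, a scramblase, and BST2, the tether that holds budding virus, were higher by 2.18, 2.32 and 1.10, whereas IFI6 differed by 2.00 and was not called (limma adjusted p = 0.11).

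ISG15, the ubiquitin-like modifier of the response, read 6.57 and 5.69 in T47D-Y, 9.35 and 10.95 in WT PR-A with vehicle, 7.49 and 9.81 with R5020, 7.51 and 5.70 in PR-A K388R with vehicle and 7.07 and 5.83 with R5020. The vehicle-treated WT PR-A arrays were separate from T47D-Y and from PR-A K388R, and the difference from T47D-Y was 4.02 (16.2-fold, SE 0.84, limma adjusted p = 0.015). UBE2L6, the enzyme that conjugates ISG15, was higher by 1.73 and TRIM21, an antibody receptor and ubiquitin ligase, by 1.02. IRF9, the DNA-binding partner of STAT2, was higher by 3.45 (10.9-fold), while the transcription factors IRF1 and IRF2 and the adaptor NMI differed by 0.54, 0.22 and 0.27 and were not called. SP100, XAF1 and LGALS3BP were higher by 1.43, 2.55 and 1.5.

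The other members not called were PML (0.60), TRIM14 (0.65), CASP1 (0.86), the RNA sensor IFIH1 (1.70, limma adjusted p = 0.051), the DNA sensor IFI16 (2.35, 0.078) and IFI44L. IFI44L read 4.13 and 2.57 in T47D-Y, 4.61 and 7.63 in WT PR-A with vehicle, 3.93 and 5.32 with R5020, 4.02 and 2.68 in PR-A K388R with vehicle and 4.17 and 2.66 with R5020. Its 2 vehicle-treated WT PR-A arrays were the farthest apart of all 33 genes. The difference from T47D-Y was 2.77 (limma adjusted p = 0.12), made of 0.49 in replicate 1 and 5.06 in replicate 2.

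The count of 21 rests on variances shared over probe sets. It was 0 in unmoderated contrasts, and 5 without replicate 2 of T47D-Y or without replicate 2 of vehicle-treated WT PR-A.

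**Figure D1:**
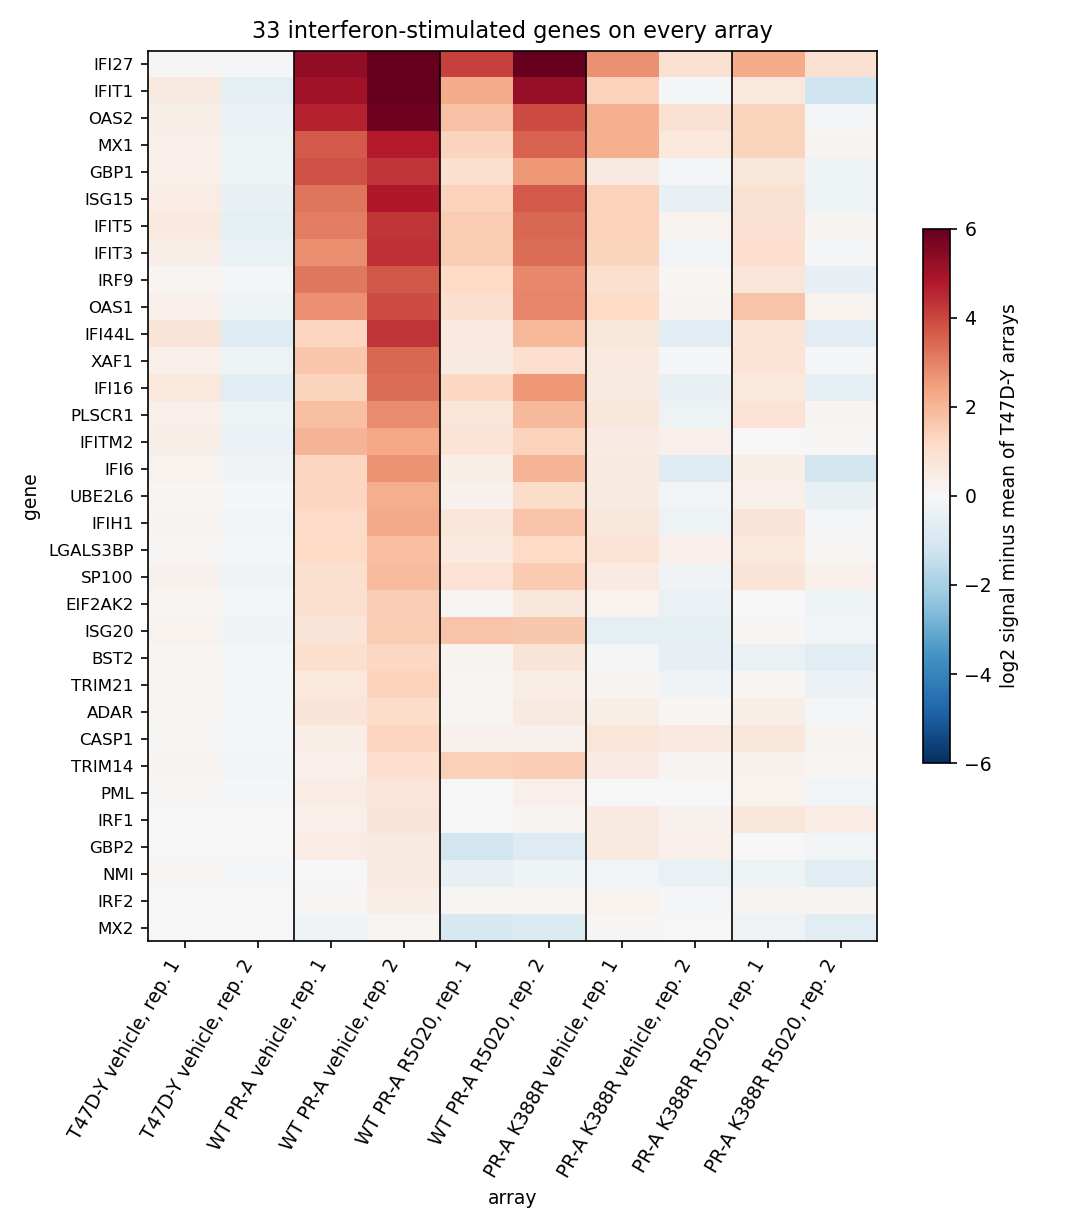
Heat map of 33 interferon-stimulated genes (vertical axis) on 10 arrays (horizontal axis), coloured by log2 signal minus the mean of the T47D-Y arrays of that gene. Both WT PR-A vehicle columns and the second WT PR-A R5020 column are reddest, most of all the second vehicle array, and IFI27, IFIT1 and OAS2 have the largest values.

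**Figure D2:**
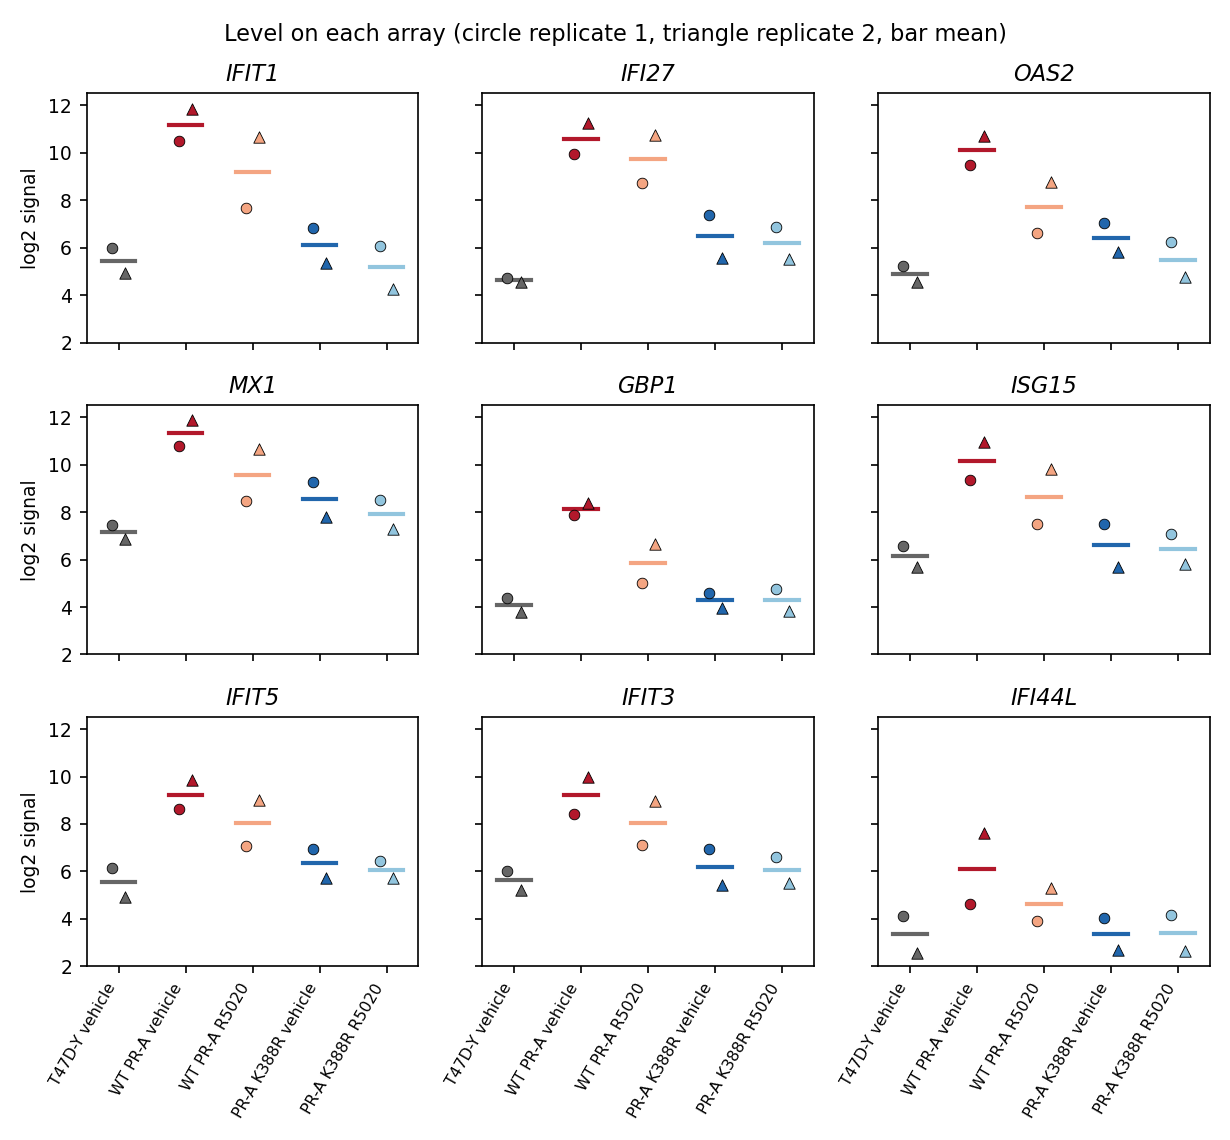
Log2 signal of the members described on every array, 1 panel a gene, by group on the horizontal axis, with circles for replicate 1, triangles for replicate 2 and bars for group means. In both WT PR-A groups the triangle lies above the circle, and in the T47D-Y and PR-A K388R groups of these genes it lies below it. Replicate gaps of a gene cancel over the 5 groups in these values, so positive and negative gaps offset each other.

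PR-A K388R cells were then compared with T47D-Y and with WT PR-A cells, all with vehicle, to ask how these levels differed between the lines. Loss of the SUMO acceptor and other differences between the lines cannot be told apart here. Against T47D-Y, 0 of the 33 genes passed the test in either direction, where 1.35% of all genes were higher and 2.48% were lower. At an unadjusted p under 0.05 in limma 4 were positive and 1 negative (11.7% and 10.3% of all genes), and unmoderated contrasts also called 0. The median difference was 0.22, against 0.05 for all genes. The largest differences were those of IFI27 (1.84, 95% interval 0.14 to 3.54), OAS2 (1.54, interval -0.12 to 3.19) and MX1 (1.39, interval -0.25 to 3.02), and 20 of 33 genes were positive in both replicate numbers (41.4% of all genes). At the other end ISG20 differed by -0.56. The wide intervals of these genes do not show that the PR-A K388R and T47D-Y levels are alike.

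Against WT PR-A, 18 of the 33 genes were lower in the mutant line and 0 were higher, where 5.63% and 3.49% of all genes were. The median difference was -1.70, against 0.05 for all genes, and 20 of 33 were at least 1.5-fold lower in both replicate numbers (4.69% of all genes). The log2 difference was -5.09 for IFIT1 (SE 0.96, limma adjusted p = 0.0082), -4.12 for IFI27, -3.85 for GBP1, -3.69 for OAS2 and -3.54 for ISG15. IRF9, IFIT3, IFIT5 and MX1 differed by -2.91, -3.01, -2.90 and -2.81. By role, 7 of 8 RNA effectors, 2 of 4 GTPases, 4 of 5 membrane proteins, 3 of 4 genes of ubiquitin-like conjugation and TRIM proteins, 1 of 4 transcription factors and adaptors, 1 of 3 other induced genes, 0 of 2 genes of nuclear bodies and 0 of 3 sensors were lower. A second probe set of the nuclear body gene SP100 was called lower (-1.14), unlike the one counted here. The sensors IFI16 and IFIH1 differed by -2.31 and -1.51 (limma adjusted p = 0.077 for each), farther than some called members. MX2 (0.09), GBP2 (-0.06), IRF1 (-0.12) and IRF2 (-0.16) were among those not called. These comparisons share the WT PR-A vehicle arrays with the one above, and the count was 0 in unmoderated contrasts and 4 without replicate 2 of vehicle-treated WT PR-A or of vehicle-treated PR-A K388R.

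**Figure D3:**
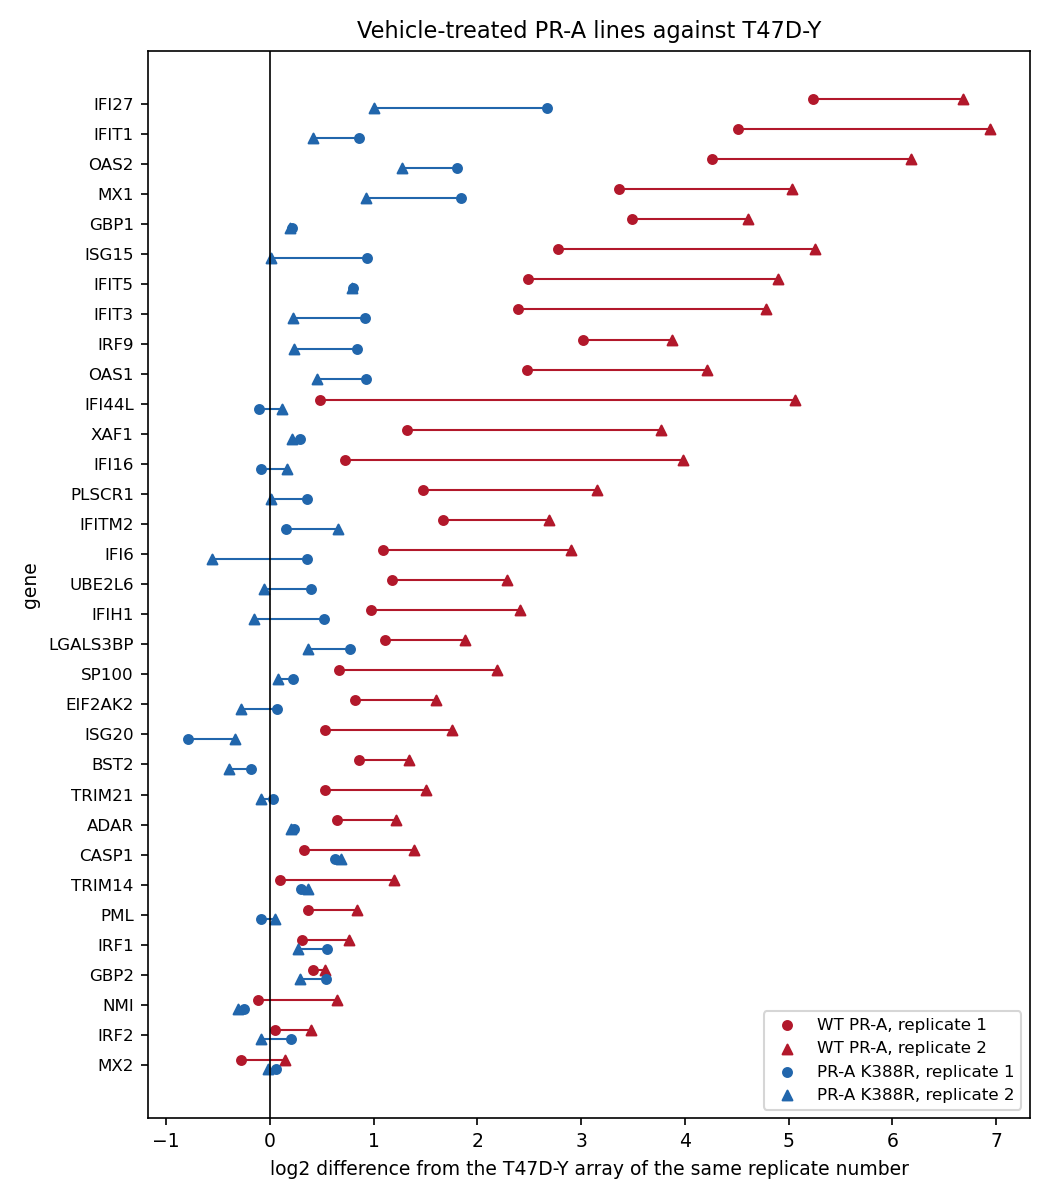
Log2 difference of each PR-A line with vehicle from the T47D-Y array of the same replicate number (horizontal axis) for 33 genes (vertical axis), with circles for replicate 1 and triangles for replicate 2 joined by a line. In WT PR-A 31 of 33 genes are positive in both replicate numbers, and in PR-A K388R 20 of 33 are.

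Arrays of one group differed more for these genes than for others. On the vehicle-treated WT PR-A arrays replicate 2 was above replicate 1 for all 33 genes, with a median gap of 0.85, and 14 of 33 were at least 2-fold apart (42.4%, against 0.292% of all genes). In WT PR-A with R5020 the gap was positive for 31 genes, with a median of 0.71, and 15 were at least 2-fold apart. In T47D-Y the median gap was -0.37 (33 of 33 negative). In PR-A K388R it was -0.69 with vehicle (33 of 33 negative) and -0.72 with R5020 (31 negative). At least 2-fold apart were 4 genes in T47D-Y, 10 in PR-A K388R with vehicle and 11 with R5020 (0.146%, 0.314% and 0.292% of all genes). Because the gaps of a gene cancel over the 5 groups, positive gaps in WT PR-A require negative ones elsewhere on balance. A negative gap in the other groups therefore does not show that their signals fell in replicate 2. Part of each gap may have been removed with the replicate number, but differences between the gaps of 2 groups were not affected: the gap exceeded that of T47D-Y for 33 of 33 genes in the WT PR-A vehicle group, with a median of 1.12, and in PR-A K388R with vehicle for 7 of 33. IFI44L had the widest gap with vehicle (3.01) and IFIT1 the widest with R5020 (3.0). Of the 26 genes on the array at least 2-fold apart between the vehicle-treated WT PR-A arrays, 14 were members, and CXCL10, OASL, LAMP3, TNFSF10 and TLR3 were among the other 12. Across the 33 genes, the WT PR-A difference from T47D-Y correlated with the gap in WT PR-A with R5020 (Pearson's r = 0.92, Spearman's rho = 0.90) and less closely with the gap with vehicle (r = 0.51, rho = 0.69), which is a description over genes that share libraries. The part of culture, RNA or array handling in these gaps was not tested.

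**Figure D4:**
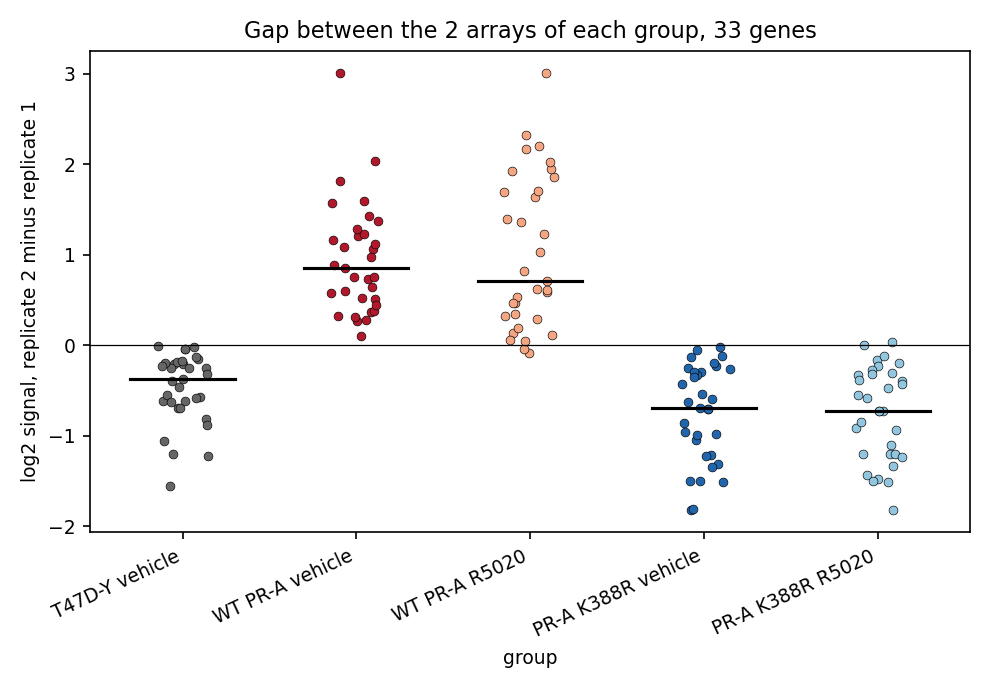
Log2 signal on replicate 2 minus replicate 1 (vertical axis) in each group (horizontal axis), 1 point a gene for 33 genes, with a bar at the median. All points are positive in WT PR-A with vehicle and 31 of 33 with R5020, with medians of 0.85 and 0.71. In the other 3 groups 31 or 33 of 33 are negative, and the gaps of a gene cancel over the 5 groups.

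R5020 was next compared with vehicle in each PR-A line. In WT PR-A cells 4 of the 33 genes fell and 0 rose, where 3.47% of all genes fell and 4.4% rose. The median difference was -0.83, against -0.02 for all genes, and 30 of 33 were negative in both replicate numbers (34.9% of all genes), of which 18 were at least 1.5-fold lower in both (3.04%). GBP2 read 7.16 and 7.27 with vehicle and 5.65 and 5.98 with R5020, a difference of -1.40 (2.63-fold lower, SE 0.15, limma adjusted p = 0.0003), and its groups did not overlap. GBP1 fell by 2.29 (SE 0.50, limma adjusted p = 0.018), IFITM2 by 1.07 and MX2 by 0.83 on the log2 scale. MX2 and GBP2, not called between WT PR-A and T47D-Y with vehicle, lay below T47D-Y with R5020, by 0.90 and 0.92.

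Several genes with large vehicle differences had negative R5020 differences that were not called. Both differences use the WT PR-A vehicle arrays, with opposite sign, so they are not independent (Pearson's r = -0.68 over the 33 genes). OAS2 differed by -2.40 (SE 0.74, limma adjusted p = 0.089), although its second probe set fell by 1.64 and was called. IFIT1 differed by -2.00 (-2.82 and -1.19 in replicates 1 and 2), MX1 by -1.79, XAF1 by -1.77, ISG15 by -1.50 and IRF9 by -1.39, each negative in both replicate numbers. TRIM14 (0.79) and ISG20 (0.54) were the 2 positive in both (29.1% of all genes).

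The number called in this response depends on how the gap between replicates is treated. A block for each line in place of one over all lines, chosen after the data were seen, takes out the gap that the vehicle and R5020 arrays of a line share, and 24 of the 33 genes then fell and 1 rose (4.02% and 4.51% of all genes). Among those 24 were OAS2, IFIT1, MX1, ISG15 and IRF9, with the same log2 differences and smaller errors, and the 1 that rose was TRIM14. In the fit with a single block the count was 1 without replicate 1 of WT PR-A with R5020, 12 without its replicate 2 and 7 without replicate 1 of WT PR-A with vehicle. Without replicate 2 of WT PR-A with vehicle it was 3, of which 1 fell and 2 rose.

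In PR-A K388R cells 0 of the 33 genes passed the test with R5020, where 1.25% of all genes rose and 0.416% fell. At an unadjusted p under 0.05 in limma 2 were negative and 0 positive (4.92% and 7.41% of all genes), and unmoderated contrasts called 0. The median difference was -0.14 and the range ran from -0.92 for OAS2 to 0.51 for ISG20. GBP2 read 7.28 and 7.02 with vehicle and 6.76 and 6.59 with R5020 (-0.48), and MX2 6.44 and 6.31 with vehicle and 6.03 and 5.70 with R5020 (-0.51), and neither was called. These were the 2 genes at an unadjusted p under 0.05.

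The difference between the responses, PR-A K388R minus WT PR-A, was tested as an interaction. It was called for 0 of 33 genes, where 0.719% of all genes were higher and 1.16% lower, and 4 were positive and 1 negative at an unadjusted p under 0.05 in limma (7.77% and 5.96%). The median was 0.66, against 0.02 for all genes, and 30 of 33 were positive in both replicate numbers (34.5% of all genes). The largest was that of GBP1, 2.30 (95% interval 0.73 to 3.87, limma adjusted p = 0.18), and that of GBP2 was 0.92 (limma adjusted p = 0.068). With the block for each line 4 were called, GBP1, GBP2, OAS1 and PLSCR1, each with a positive difference, and 0 in the other direction (0.797% and 1.1% of all genes). Their own responses in PR-A K388R cells were 0.01, -0.48, 0.26 and 0.34 in that order. That fit called 0 members in PR-A K388R cells, where 1.27% of all genes rose and 0.449% fell. Of these 4 genes GBP1, OAS1 and PLSCR1 were also higher in WT PR-A than T47D-Y with vehicle, and the part of that starting level was not tested.

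After R5020, WT PR-A cells had 11 of the 33 genes above T47D-Y with vehicle, and 2 below, where 7.12% and 6.33% of all genes were higher and lower. IFI27 was higher by 5.10 (34.4-fold, limma adjusted p = 0.0013), IFIT1 by 3.72, OAS2 by 2.82, IFIT5 by 2.50, IFIT3 by 2.43, IRF9 by 2.05 and GBP1 by 1.76. ISG20, TRIM14, SP100 and IFITM2 were higher by 1.68, 1.44, 1.24 and 1.11. The second probe sets of GBP1 and IFIT5 were not called here, and unmoderated contrasts called 0 members. Since the T47D-Y cells had no R5020, the receptor and the hormone cannot be told apart in this comparison.

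**Figure D5:**
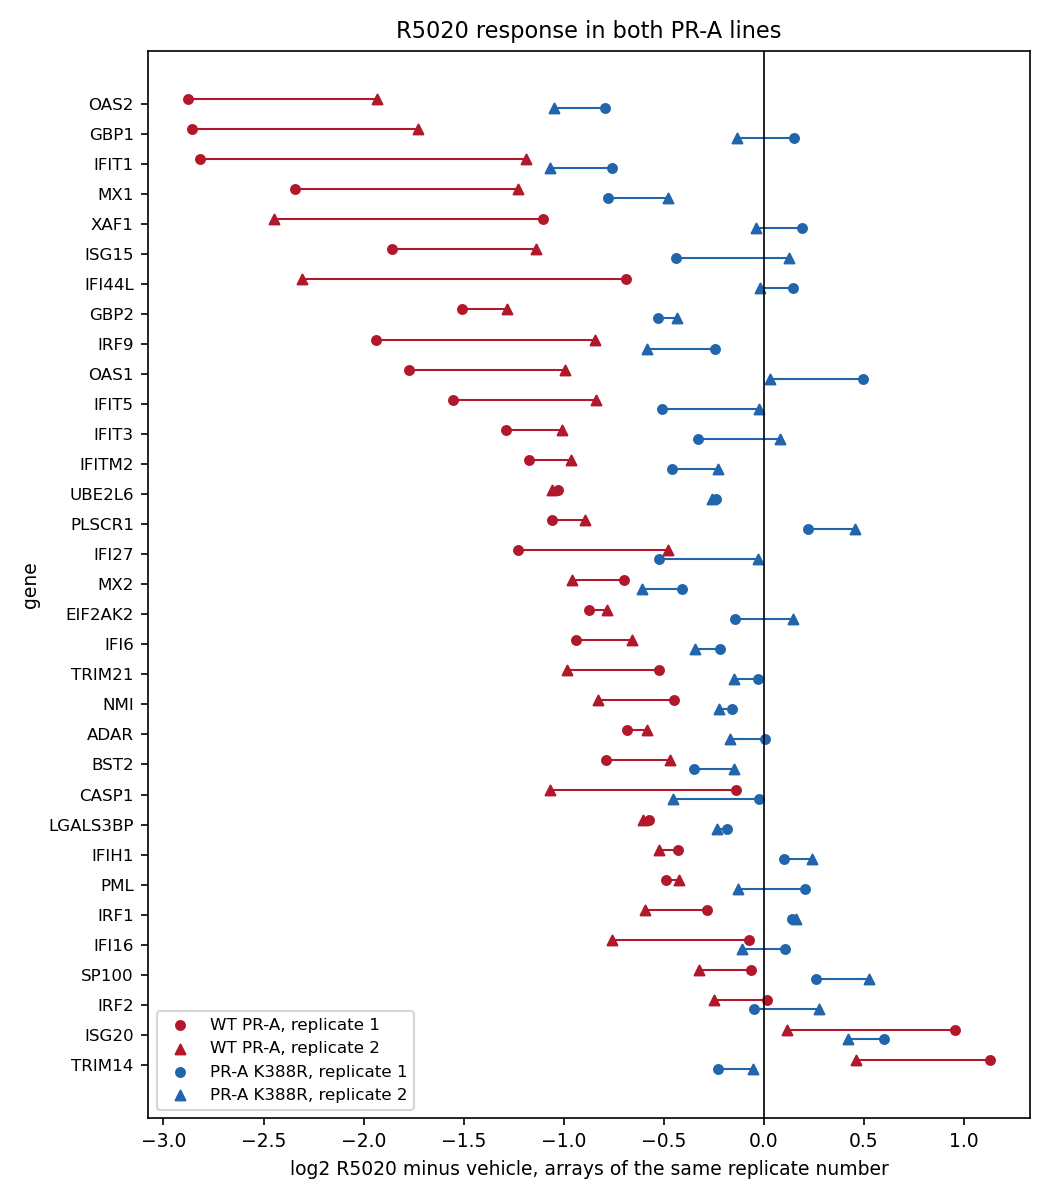
Log2 signal with R5020 minus vehicle within each replicate number (horizontal axis) for 33 genes (vertical axis) in each PR-A line, with circles for replicate 1 and triangles for replicate 2. In WT PR-A 30 of 33 genes are negative in both replicate numbers, with a median of -0.83, and in PR-A K388R the median is -0.14.

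Other genes of the pathway were read from lists. Of the interferon genes themselves IFNE, IFNL1 and IFNL2 were measured, with signals of 2.61 to 4.89 over the 10 arrays, and 0 of 3 were called in WT PR-A against T47D-Y. In that comparison 4.48% of all genes were higher and 4.03% lower, so 0 of so few genes cannot be set apart from all genes. Of 8 receptors and kinases, IFNGR2, a chain of the interferon gamma receptor, was higher there by 0.96 and JAK1 was lower by a difference of -0.64. JAK2 rose with R5020 by 1.66 in the wild type and 0.63 in the mutant line, and the response differed by -1.03 (limma adjusted p = 0.02). IFNAR1, a chain of the type I receptor, differed by -0.69 with R5020 in WT PR-A cells. None of 5 nucleic acid sensing genes was called in WT PR-A against T47D-Y (0 of 5, with TLR3 at 1.46 and limma adjusted p = 0.15), which is again near the share of all genes. IKBKE, a kinase upstream of interferon, fell with R5020 in both PR-A lines, by 0.65 in the wild type and 0.63 in the mutant line. Among 15 further interferon-stimulated genes, 3 were higher in the vehicle comparison of WT PR-A with its parent, where 4.48% of all genes were. They were OASL (3.17), CXCL10 (2.56) and TRIM38 (1.93). The other 12 were not called, and 3 of the 15 differences were negative. The median of the 15 was 0.14, against 1.73 for the 33 members. Of 4 feedback genes 0 were called in WT PR-A against T47D-Y, also too few to be set apart from the share of all genes.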

How the data were processed

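Affymetrix U133 Plus 2 arrays of 10 samples, 2 a group, were analysed from the deposited log2 values per probe set, which the authors had normalized in Partek Genomics Suite; the normalization method is not given in the sources used here. Medium and RNA kit differ between sources: DMEM, stripped serum and PicoPure in the labels, MEM, FBS and RNAeasy in the study's methods. The number of arrays limits the precision. The table held 16376 probe sets, of which 12547 carry 1 gene symbol, 457 several and 3372 none. Symbols were those of the platform annotation, and all 33 measured members had the same symbol in RefSeq.

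Values were fitted in limma 3.58.1 (R 4.3.3) over all 10 arrays with 1 mean per group and the replicate number as a block (4 residual and 5.62 prior degrees of freedom), since that number had been removed from the values. Same-numbered arrays share only a number in the labels. The Benjamini-Hochberg adjustment ran over the whole table, and calls needed an adjusted p under 0.05 and a change of at least 1.5-fold. There were 7 comparisons. Background shares were counted over 8904 genes.

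The members and lists were chosen with earlier results of these data known. Genes shown on every array were the 8 with the largest range between group means and the one with the largest gap between vehicle-treated WT PR-A arrays; GBP2 and MX2 were added after their values were seen. For the other lists, up to 4 genes with the smallest adjusted p in WT PR-A against T47D-Y were to be named; JAK2, IFNAR1, IKBKE, SOD2, PSMB9, PSMB10 and ERAP2 were chosen after their values were seen. Fits were tested on simulated data. Alternatives were no replicate block, variances without moderation, a prior variance that follows intensity, quantile normalization, arrays centred on their medians, the dimmest 40% of probe sets dropped, a 2-fold minimum, only the compared groups, the probe set with the largest variance, and leaving out each of the 10 arrays. A replicate block within each line (8 arrays, 2 residual degrees of freedom) was added after the data were seen, when the fit of the compared groups alone had given more calls. Figures were drawn with Python 3.11.15 and matplotlib 3.10.9.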

Additional observations from a re-analysis of the deposited data

Results flagged for a closer look

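The R5020 responses of the PR-A lines differed by the interaction test for JAK2 (PR-A K388R minus WT PR-A -1.03 on the log2 scale) and for SOD2, a mitochondrial superoxide dismutase and NF-kappaB target (-1.75). Among the interferon-stimulated genes the same test called differences in the fit with a replicate block within each line, but not with a single block, for GBP1 (2.30), OAS1 (1.65), PLSCR1 (1.31) and GBP2 (0.92). In 6 of the 33 members both replicate numbers moved one way in WT PR-A and the other way in PR-A K388R cells. They were OAS1 (1.65), PLSCR1 (1.31), IFIH1 (0.65), IRF1 (0.59), SP100 (0.59) and TRIM14 (-0.94). With a single block none of these 6 differences was called, and TRIM14 had the smallest limma adjusted p, 0.24. The share of all genes with such opposite moves was not counted, so the 6 have no background to be set against. In both replicate numbers, 34.9% of all genes were negative and 29.1% positive in WT PR-A. In PR-A K388R 25.9% were negative and 30.5% positive. Some moves in PR-A K388R were small, with 0.03 for OAS1 and -0.05 for TRIM14 in replicate 2.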

How the results depend on the processing

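The block could not be dropped without counting a degree of freedom that the removal of the replicate number had used, and no replicate block gave 23, 0, 21, 5, 0, 1 and 14 called members for the vehicle differences WT PR-A minus T47D-Y, PR-A K388R minus T47D-Y and PR-A K388R minus WT PR-A, the R5020 responses of WT PR-A and PR-A K388R, their difference, and WT PR-A with R5020 minus T47D-Y, against 21, 0, 18, 4, 0, 0 and 13. Unmoderated contrasts called 0 members in all of these but the R5020 response of WT PR-A, where they called 1. An intensity trend called 10 in that response and 1 in the difference of the responses. With only the compared groups, 4 members were called for PR-A K388R against T47D-Y, 25 for WT PR-A with R5020 against vehicle and 3 for PR-A K388R with R5020 against vehicle, from fits with 1 residual degree of freedom. The replicate block within each line, added after the data were seen, called 25 for WT PR-A and 4 for the difference. Leaving out each array gave 5 to 27, 0 to 1, 4 to 23, 1 to 12, 0 to 0, 0 to 2 and 5 to 19 called members in the order above. The lowest counts for WT PR-A with R5020 against T47D-Y came without replicate 2 of T47D-Y or of WT PR-A with R5020 (5 each), and that without replicate 1 of T47D-Y was 7. No called member changed direction under an alternative, and GBP2 was the only member called lower with R5020 in WT PR-A under all 19 settings run. A group left with 1 array was taken to have the spread of the rest. Apart from the settings named, the cause of a changed count was not tested.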

Other observations

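Genes of MHC class I antigen presentation, which interferons also induce, were higher in vehicle-treated WT PR-A cells than in T47D-Y for 4 of 10 measured (PSME1 1.13, HLA-F 0.97, TAP1 0.92 and HLA-E 0.66 on the log2 scale), where 4.48% of all genes were. R5020 lowered 3 of the 10 in WT PR-A cells, the immunoproteasome subunits PSMB9 (-1.14) and PSMB10 (-0.88) and the peptidase ERAP2 (-0.65), where 3.47% of all genes fell, and 0 of 10 were called in PR-A K388R cells, where 0.416% fell and 1.25% rose.

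NF-kappaB targets were called in both vehicle comparisons with T47D-Y. CCL20, a chemokine, was above T47D-Y by 1.26 in the WT PR-A line and by 2.0 in the mutant line. ICAM1, an adhesion molecule, was higher by 1.80 and 0.76. In WT PR-A against T47D-Y 5 of 12 were higher and 1, TNFAIP2, was lower (-0.80), where 4.48% and 4.03% of all genes were, while in PR-A K388R against T47D-Y 3 of 12 were higher, TNFAIP2 among them (0.80), where 1.35% of all genes were.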
